A study of Mus musculus with 96 samples.

Results

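Chaperones are the proteins that help other proteins to fold, and the genes described here are 43 that encode chaperones or the factors that control them. They were taken by gene symbol from a table of 15895 genes, and all 43 were found. Of these, 22 act in or at the endoplasmic reticulum (ER), 18 in the cytosol and nucleus, and 3 in mitochondria, and the 3 groups were kept apart. The cells were primary embryonic fibroblasts (MEFs) of the CF-1 strain of mouse, isolated at embryonic day 13, which grow for a limited number of divisions. They were held for 36 h in medium with 0.5% fetal calf serum (FCS), which stops most of them from dividing, and FCS was then raised to 20% at 0 h. RNA was sequenced in 2 time courses, named Cycle 1 (63 libraries analysed here, the last at 38 h) and Cycle 2 (32 libraries, the last at 27 h), with 1 library per time point of a Cycle. The libraries at -1 and 0 h are the starved cells of their Cycle, and 29 later hours were sampled in both.

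In the ER, Hspa5 (BiP) and Hsp90b1 (GRP94) hold unfolded chains, Calr and Canx bind chains that carry sugars, and the disulfide isomerases form disulfide bonds. When unfolded protein builds up there, the sensors encoded by Ern1 (IRE1), Atf6 and a kinase start the unfolded protein response (UPR), in which Xbp1 and Atf6 act as transcription factors on genes for folding and for the removal of misfolded chains. In the cytosol, Hsf1 drives the inducible heat shock genes, while Hspa8, the HSP90 genes and the ring-shaped chaperonin TRiC (Tcp1 and the Cct genes) serve newly made proteins in unstressed cells. In mitochondria, Hspd1 (HSP60) and its lid Hspe1 (HSP10) form a folding chamber, and Hspa9 helps to import and fold chains. Fibroblasts secrete much collagen, which passes through the ER.

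Values are normalized read counts that the authors scaled to nearly equal totals, 8420657 to 8916718 per library over the genes of the table. The reads recovered from the steps of the values were 4352437 to 12551592 per library (median 9374769). Values are not divided by gene length, so levels of different genes are not compared below. Reads of both strands were counted. Exons of 13 members overlap those of another gene, and reads from such an overlap cannot be told apart. These members are Hsp90b1, Pdia3, Pdia4, Pdia6, Manf, Syvn1, Hspa1a, Hspa8, Dnaja1, Cct8, Tcp1, Hspd1 and Hspe1. All 10 markers of fibroblasts were present in every library and their values summed to at least 184666, against at most 4598 for the 5 markers of blood cells and macrophages found in the table, 607 for epithelium, 369 for nerve cells, 272 for endothelium and 135 for muscle. The Cycle 1 library at 24.5 h stood apart from its neighbours, with a median difference of 0.411 on the log2 scale over all genes with a mean of at least 100, against at most 0.262 in any other library. For instance, Dnajb9 was at 33.6 there and at 189.4 and 219.4 on either side. That hour has no partner in Cycle 2 and was in no test. The Cycle 1 library at 26 h was in the tests, differed from its neighbours by a median of 0.227, and held the highest value of Cycle 1 among the shared hours after serum for 14 of the 43 members and the lowest for 5.

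Some promoters are shown because the response elements of the UPR and of heat shock are defined by their letters. Of the 43 members, 35 had an entry in a RefSeq table of windows (build GRCm38.p6) that run from 250 bases before to 50 after the start of transcription. The ER stress element was searched on both strands as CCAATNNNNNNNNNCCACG, and 8 of 19 ER members held it (42.1%) against 37 of 27025 windows by gene symbol (0.137%). These were Hspa5, Hsp90b1, Calr, Canx, Pdia6, Dnajc3, Creld2 and Syvn1, and no window of the 14 cytosolic or 2 mitochondrial members searched held those letters. The related element ATTGGNCCACG, which shares its last 5 letters with the former, was in the windows of Dnajb11 and Herpud1 and in 12 of all (0.0444%). In the stretches below, written 5′ to 3′ along the strand of the gene, capitals mark the element, and where the capitals begin with CGTGG it lies on the opposite strand.
Hspa5 (chr2:34772005-34772063, + strand): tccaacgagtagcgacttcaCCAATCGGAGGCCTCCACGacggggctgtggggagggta
Hsp90b1 (chr10:86705618-86705676, - strand): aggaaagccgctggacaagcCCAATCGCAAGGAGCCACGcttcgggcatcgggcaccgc
Hsp90b1 (chr10:86705513-86705571, - strand): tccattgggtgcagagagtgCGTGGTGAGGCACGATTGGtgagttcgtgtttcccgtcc
Calr (chr8:84847055-84847113, - strand): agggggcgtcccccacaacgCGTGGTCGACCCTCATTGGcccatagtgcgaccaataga
Creld2 (chr15:88819500-88819558, + strand): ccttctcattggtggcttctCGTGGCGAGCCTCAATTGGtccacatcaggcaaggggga
Syvn1 (chr19:6046512-6046570, + strand): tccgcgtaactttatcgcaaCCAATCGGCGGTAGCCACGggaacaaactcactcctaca
Herpud1 (chr8:94386357-94386407, + strand): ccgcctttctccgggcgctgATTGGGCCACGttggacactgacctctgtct

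The heat shock element was searched on both strands as 3 inverted units, GAANNTTCNNGAA. It was in the windows of Hsph1, Hspd1 and Hspe1 and in 179 of all (0.662%). Hspd1 and Hspe1 start back to back on chromosome 1, so the same bases lie before both genes, and overlapping matches on the 2 strands make 1 run of capitals here.
Hspe1 (chr1:55088039-55088096, + strand): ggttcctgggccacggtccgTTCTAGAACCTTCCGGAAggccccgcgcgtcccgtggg
The letters TGACGTGG, the site of Xbp1 and Atf6 in reporter constructs, whose last 5 letters are the reverse complement of the CCACG of the other ER elements, were in the window of no member and in 193 of all (0.714%). A match is a description of the letters and not evidence of binding.

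To compare the hours after serum with starved cells, limma was fitted to log2(value + 1) of all 15895 genes over the 62 libraries of shared hours, with the Cycle as a term. The shared hours were averaged in 6 windows, and a gene was called when its Benjamini-Hochberg adjusted p was under 0.05. Changes below are log2 differences from the starved cells with the standard error (SE) of that fit, and the range and median of a window cover all its libraries, including hours sampled in Cycle 1 alone, which were in no test. In RNA of whole cultures, fewer cells of a kind and less RNA per cell cannot be told apart. At 1 to 3 h, 15 of 43 members were called higher (34.9%, against 14.1% of all genes) and 4 lower (9.30%, against 39.2%). At 4 to 6 h the counts were 21 higher and 8 lower, where all genes gave 21.0% and 40.4%. From 7 h on more than 23 members were higher in every window. There were 26 higher and 3 lower at 7 to 10 h (all genes 22.9% and 36.7%), 26 and 3 at 11 to 14 h (24.8% and 34.9%), 24 and 4 at 15 to 20 h (26.4% and 36.9%), and 25 and 6 at 21 to 27 h (26.2% and 39.5%). The median change of the members was 0.10 at 1 to 3 h and 0.49 at 21 to 27 h, where the median over all genes was -0.26 and -0.16. With TMM scaling, which moved the median of all genes to -0.05 at 1 to 3 h and -0.07 at 21 to 27 h, 23 members were higher and 2 lower at 1 to 3 h (all genes 22.8% and 25.9%) and 23 and 4 at 4 to 6 h (27.5% and 31.8%).

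The 3 compartments differed in their counts. Over the 6 windows all genes gave 14.1% to 26.4% higher and 34.9% to 40.4% lower. In the cytosol 10 to 15 of 18 members were higher in each window (55.6% to 83.3%) and at most 3 were lower (16.7%). Their medians went from 0.26 at 1 to 3 h to 0.63 at 21 to 27 h. In the ER 5 to 11 of 22 were higher (22.7% to 50.0%) and 2 to 6 lower (9.09% to 27.3%). At 21 to 27 h these shares were 36.4% and 27.3%, where all genes gave 26.2% and 39.5%. The ER median was highest, 0.40, at 11 to 14 h and 0.13 at 21 to 27 h. In mitochondria Hspd1 was called higher in every window from 4 h on and Hspe1 from 11 h on, and Hspa9 in no window without TMM scaling. Over the 6 windows 28 members were called higher only, 7 lower only, 4 in both directions and 4 (Hsp90b1, Pdia3, P4hb and Hspa9) in neither, of which TMM scaling called P4hb higher in 3 windows, Hspa9 in 2 and Hsp90b1 in 1. Shares of all genes are not given for this tally, so it is a description of the members only. A change of at least 2-fold in a window was reached upwards by 7 members (Sdf2l1, Manf, Ern1, Hspb1, Hspb8, Bag3 and Hspd1), where 13.8% of all genes reached it, and downwards by Hspa1a and Hspa1b, where 32.9% did. The count of 7 became 4 without the Cycle 1 library at 0 h, 12 and 11 without the Cycle 2 library at -1 or 0 h, 3 without Cycle 1 and 20 without Cycle 2. The count of 2 became 0 without the Cycle 1 library at 0 h and 1 without the Cycle 2 library at 0 h. Shares of all genes at 2-fold are not given for these fits. The fits without a Cycle, here and below, took the hours of a window in the other Cycle as replicates. The 15 members higher at 1 to 3 h became 8 without either starved library of Cycle 1. Over all genes 2249 became 1971 without that at -1 h and 1930 without that at 0 h. The 4 lower became 2 without either starved library of Cycle 2, where 6232 of all genes became 5922 and 6097. The 8 lower at 4 to 6 h became 5 without the Cycle 2 library at 0 h (all genes 6425 and 6369). The 3 lower at 7 to 10 h became 5 without the Cycle 1 library at -1 h (all genes 5834 and 5056).

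**Figure D1:**
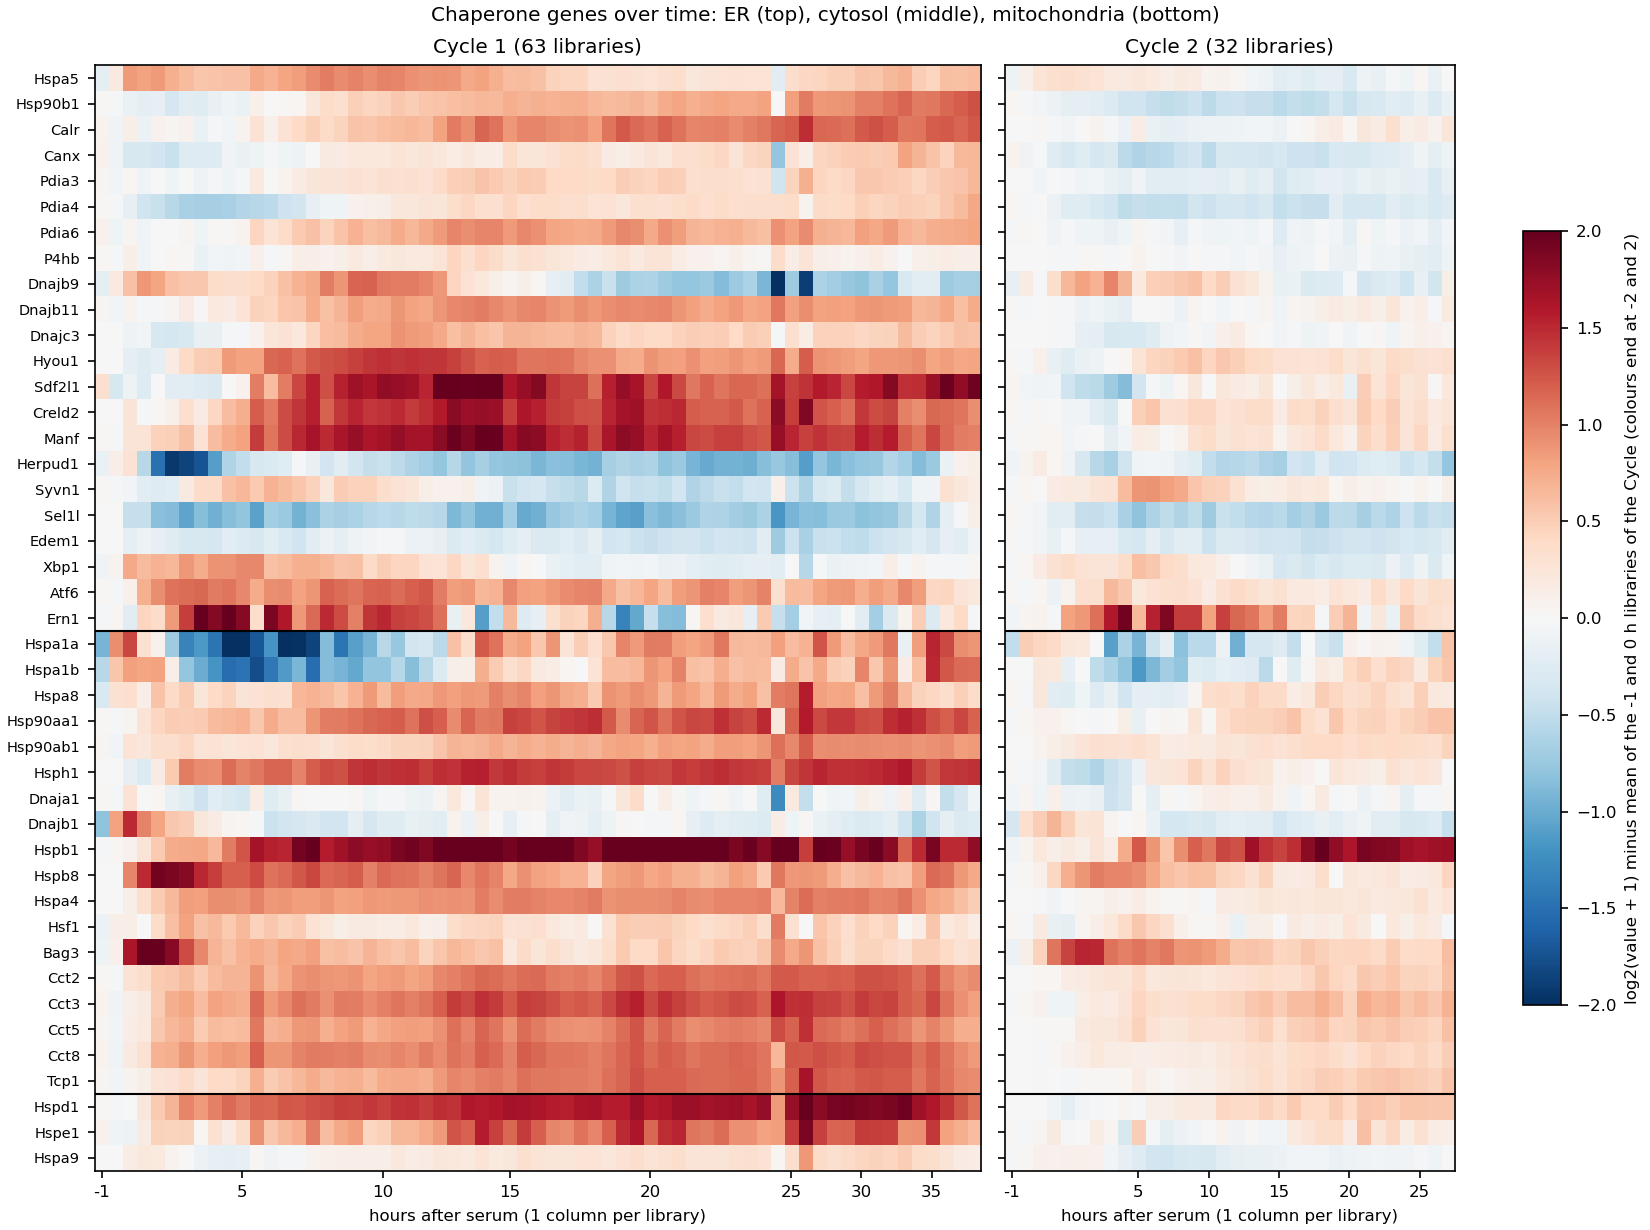
Heat map of the 43 members (rows; ER, cytosol and mitochondria from top to bottom) in every library of Cycle 1 (left, 63 columns) and Cycle 2 (right, 32 columns), in order of hours after serum. Colour is the log2(value + 1) of a library minus the mean of the -1 and 0 h libraries of its Cycle, from blue (lower) to red (higher). Colours are stronger in Cycle 1 for most members, and the Cycle 1 columns at 24.5 and 26 h differ from their neighbours.

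The 2 Cycles differed in how far the members moved. The median change at 11 to 14 h was 0.83 in Cycle 1 and 0.19 in Cycle 2 over all members, and 0.61 and -0.02 over the ER members, where all genes had -0.18 and -0.06. The members also began at different levels, since in starved cells 35 of the 43 had a higher mean log2 value in Cycle 2 than in Cycle 1, with a median gap of 0.44, while over all genes 6909 of 15895 were higher in Cycle 2 and the median gap was -0.08. At 21 to 27 h 13 of 43 were higher in Cycle 2 and the median gap was -0.14. The gap itself was not tested. Because the fit averages both Cycles, most changes of members below stand beside the value of each Cycle, that of Cycle 1 before that of Cycle 2. All 19 calls at 1 to 3 h had the same direction in both Cycles, as did 24 of 29 at 11 to 14 h (82.8%) and 29 of 31 at 21 to 27 h (93.5%), where all genes gave 99.4%, 98.0% and 98.4% of their calls.

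Among the folding factors of the ER, Hspa5, the HSP70 of the ER lumen, rose early. In Cycle 1 its values were 9839 and 13034 at -1 and 0 h, 17506 to 20516 (median 19811) at 1 to 3 h, 20131 to 22899 (21852) at 7 to 10 h and 13725 to 17543 (15186) at 15 to 20 h. In Cycle 2 they were 14298 and 16397 in starved cells, 17616 to 19448 (18918) at 1 to 3 h, 16161 to 17385 (16985) at 7 to 10 h and 12368 to 13473 (13214) at 15 to 20 h. The libraries at 1 to 3 h lay above both starved ones in both Cycles, those at 7 to 10 h did so in Cycle 1 only, and those at 15 to 20 h lay above them in Cycle 1 and below them in Cycle 2. The fitted change was 0.53 ± 0.109 (SE, adjusted p = 0.000106; 0.77 and 0.29) at 1 to 3 h and 0.55 ± 0.113 (adjusted p = 9.4e-05) at 7 to 10 h. The latter was 0.96 in Cycle 1 and 0.14 in Cycle 2, and with Cycle 2 alone it was not called (adjusted p = 0.103). No change was called from 15 h on.

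Hsp90b1, the HSP90 of the ER lumen, was called in no window (with TMM scaling it was higher at 21 to 27 h, by 0.40, adjusted p = 0.0462). From 7 h on its changes from starved cells had opposite signs in the 2 Cycles. Its levels in the Cycles came closer, since Cycle 2 minus Cycle 1 was 0.95 on the log2 scale in starved cells and -0.19 at 15 to 20 h. In starved cells it was at 10052 and 9661 in Cycle 1 and at 19594 and 18551 in Cycle 2. At 15 to 20 h it was at 15238 to 16271 (median 15852) in Cycle 1 and at 13152 to 14864 (13727) in Cycle 2. The change in that window was 0.68 in Cycle 1 and -0.47 in Cycle 2, and the fitted 0.11 is the average of these. Among the shared hours after serum it was lowest at 2.5 h in Cycle 1 and at 15 h in Cycle 2, and from 4 to 6 h to 21 to 27 h it rose by 0.55 ± 0.159 (adjusted p = 0.00313), 0.93 in Cycle 1 and 0.18 in Cycle 2.

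Of the lectin chaperones of the ER, Calr rose late and Canx fell early. Calr was at 9852 and 8996 in starved cells of Cycle 1 and at 18225 to 26074 (median 19469) at 21 to 27 h. In Cycle 2 these were 14691 and 14587 and then 15456 to 18228 (16441). All libraries of that window were above the starved ones of their Cycle, and the change was 0.66 ± 0.171 (adjusted p = 0.0011), 1.13 in Cycle 1 and 0.19 in Cycle 2. Canx was at 6584 and 5906 in starved cells of Cycle 1 and at 5208 to 6160 (5843) at 4 to 6 h, which overlap, and at 9867 and 8987 and then 6231 to 6580 (6382) in Cycle 2, which do not. It fell by 0.35 on the log2 scale at 4 to 6 h (SE 0.129, adjusted p = 0.0197; -0.14 and -0.56 in the Cycles), but it was not called with TMM scaling (adjusted p = 0.221), nor without the Cycle 2 library at -1 h (adjusted p = 0.111) or at 0 h (adjusted p = 0.0677). Of the disulfide isomerases, Pdia4 fell by 0.54 (SE 0.168, adjusted p = 0.00595; -0.59 and -0.49) at 4 to 6 h, which was not called against the 0 h libraries alone (adjusted p = 0.0514), and it regained 0.56 ± 0.127 by 21 to 27 h (adjusted p = 0.000294; 0.91 and 0.21). Pdia6 was called higher at 11 to 14 h (0.40 ± 0.164, adjusted p = 0.0343), but its change was 0.87 in Cycle 1 and -0.06 in Cycle 2, and it was not called without the Cycle 1 library at -1 h (adjusted p = 0.131) or at 0 h (adjusted p = 0.2). For Pdia3 and P4hb, the oxidoreductases of glycoproteins and of collagen, no change in any window passed the test. With TMM scaling P4hb was called higher at 1 to 3 h (0.23, adjusted p = 0.00659), 7 to 10 h (0.18, adjusted p = 0.0278) and 11 to 14 h (0.23, adjusted p = 0.0067), and Pdia3 in no window.

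**Figure D2:**
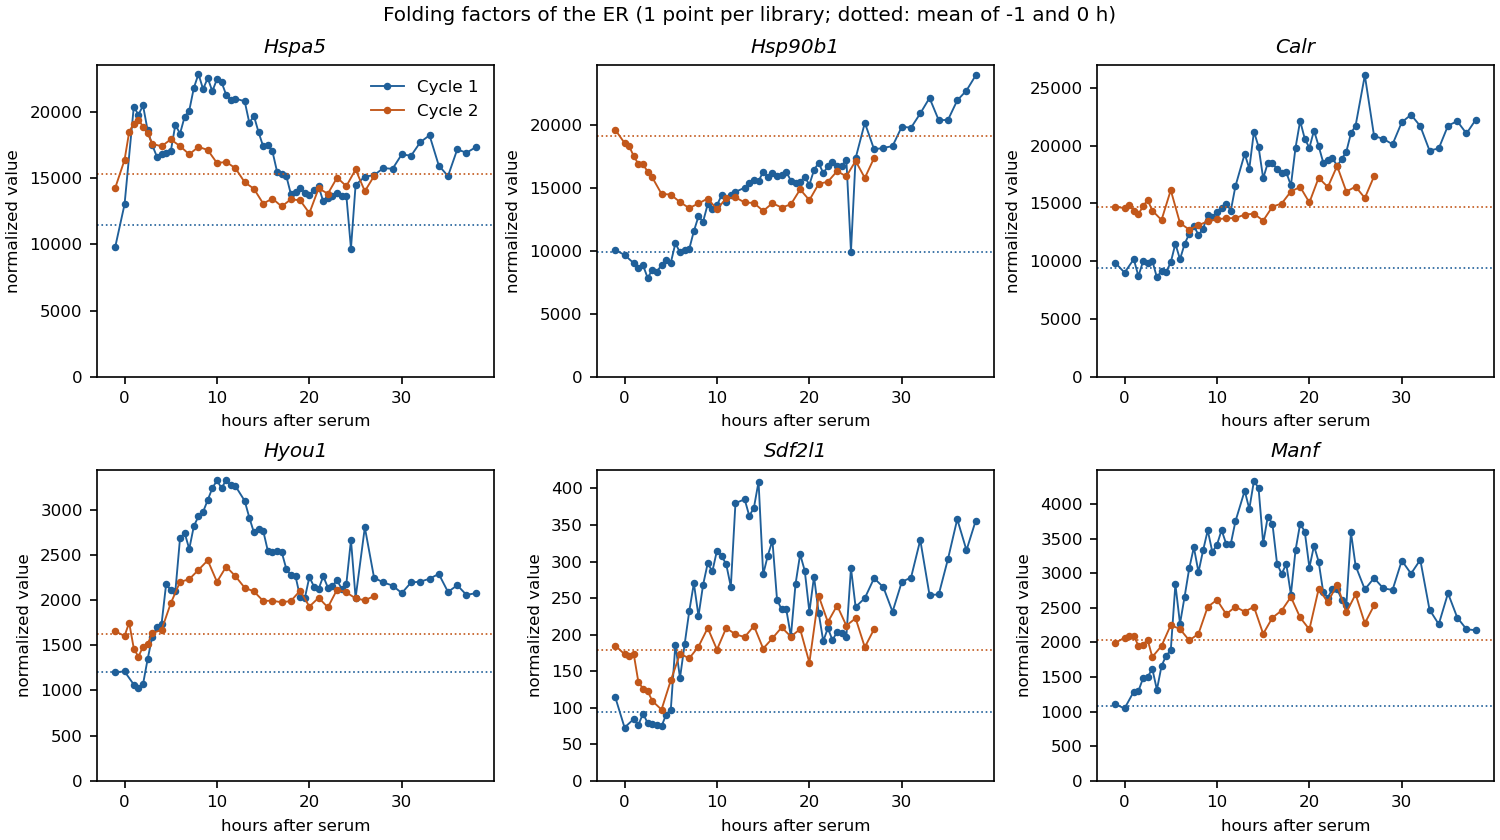
Normalized value (vertical axis, from 0) against hours after serum for Hspa5, Hsp90b1, Calr, Hyou1, Sdf2l1 and Manf. Each point is 1 library, Cycle 1 in blue and Cycle 2 in orange, and the dotted lines are the means of the -1 and 0 h libraries of each Cycle. The starved levels of all 6 genes are lower in Cycle 1, and Hsp90b1 lies above its dotted line in Cycle 1 and below it in Cycle 2 at 15 to 20 h.

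Other ER genes rose later. Hyou1 and Creld2 were called higher in every window from 4 h on, and Manf, Sdf2l1 and Dnajb11 in every window from 7 h on. Hyou1 (GRP170), which exchanges the nucleotide of BiP, was at 1202 and 1210 in starved cells of Cycle 1 and at 2748 to 3329 (median 3179) at 11 to 14 h. The values of Cycle 2 were 1654 and 1603 and then 2095 to 2370 (2200). The groups did not overlap in either Cycle, and the change was 0.90 ± 0.136 (adjusted p = 9.97e-07; 1.36 and 0.44). Creld2, a small ER protein of the UPR, rose by 0.98 ± 0.195 at 11 to 14 h (adjusted p = 6.59e-05; 1.63 and 0.33).

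Manf, a secreted ER factor that binds BiP, was at 1108 and 1046 in starved cells of Cycle 1 and at 3423 to 4334 (median 3839) at 11 to 14 h. Cycle 2 had 1994 and 2068 and then 2408 to 2516 (2479). The change was 1.07 ± 0.206 (adjusted p = 4.1e-05), 1.86 in Cycle 1 and 0.28 in Cycle 2. Sdf2l1, a partner of the ER J-protein Dnajb11, was at 114 and 72.9 in starved cells of Cycle 1 and at 266 to 385 (368) at 11 to 14 h, but at 185 and 173 and then 197 to 212 (205) in Cycle 2. Its fitted change of 1.07 ± 0.254 (adjusted p = 0.000521) was 1.95 in Cycle 1 and 0.19 in Cycle 2, and in Cycle 2 alone it was not called (adjusted p = 0.396). After serum Sdf2l1 was lowest at 4 h in both Cycles, 74.7 and 97.4. Dnajb11 rose by 0.50 ± 0.131 at 15 to 20 h (adjusted p = 0.00139; 0.92 and 0.07) and Dnajc3, a co-chaperone of BiP, by 0.39 ± 0.129 at 11 to 14 h (adjusted p = 0.00996; 0.70 and 0.08), and neither was called in Cycle 2 alone (adjusted p = 0.456 and 0.422). Dnajc3 was not called without the Cycle 1 library at -1 h (adjusted p = 0.0541) or 0 h (adjusted p = 0.0574) either.

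The sensor genes Ern1 and Atf6 and Xbp1 were called higher at 1 to 3 h, in the same direction in both Cycles. The gene of the kinase sensor PERK, Eif2ak3, is no member and was lower, by 0.45 at 1 to 3 h (-0.45, adjusted p = 0.00318) and 1.03 at 21 to 27 h (-1.03, adjusted p = 8.94e-09), and it is named here after its values were seen. Ern1 encodes the kinase and RNase that splices the mRNA of Xbp1. It was at 94.7 and 99.4 in starved cells of Cycle 1 and at 123 to 410 (median 348) at 4 to 6 h, and in Cycle 2 at 88.7 and 96.4 and then at 145 to 356 (272). All of those libraries were above the starved ones, and the change was 1.61 ± 0.299 (adjusted p = 2.42e-05; 1.84 and 1.37). By 21 to 27 h Ern1 was at 52.6 to 140 (93.3) in Cycle 1 and 84.6 to 135 (114) in Cycle 2, and between these windows it fell by 1.54 on the log2 scale (SE 0.226, adjusted p = 4.62e-07).

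Xbp1 was at 1421 and 1572 in starved cells of Cycle 1, at 2253 to 2926 (median 2789) at 4 to 6 h and at 1002 to 1488 (1298) at 21 to 27 h. Its values in Cycle 2 were 1600 and 1679, then 2121 to 2490 (2373) and 1338 to 1538 (1366). It was highest at 5 h in both Cycles among the shared hours, 2923 and 2490.4. It rose by 0.66 ± 0.0949 at 4 to 6 h (adjusted p = 3.79e-07) and lay 0.20 under the starved level at 21 to 27 h (SE 0.0833, adjusted p = 0.035). With TMM scaling the latter was -0.10 and not called (adjusted p = 0.337). The row of Xbp1 is an average over transcripts, and it does not tell spliced and unspliced mRNA apart. Atf6 was called higher in all 6 windows, by 0.67 ± 0.104 at 7 to 10 h (adjusted p = 1.54e-06), where it was 1.06 in Cycle 1 and 0.28 in Cycle 2, and in Cycle 2 alone it was not called in that window (adjusted p = 0.0788). In starved cells it was at 600 and 576 in Cycle 1 and at 1061 and 1020 in Cycle 2, and at 7 to 10 h at 1025 to 1336 (1277) and 1160 to 1325 (1287).

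**Figure D3:**
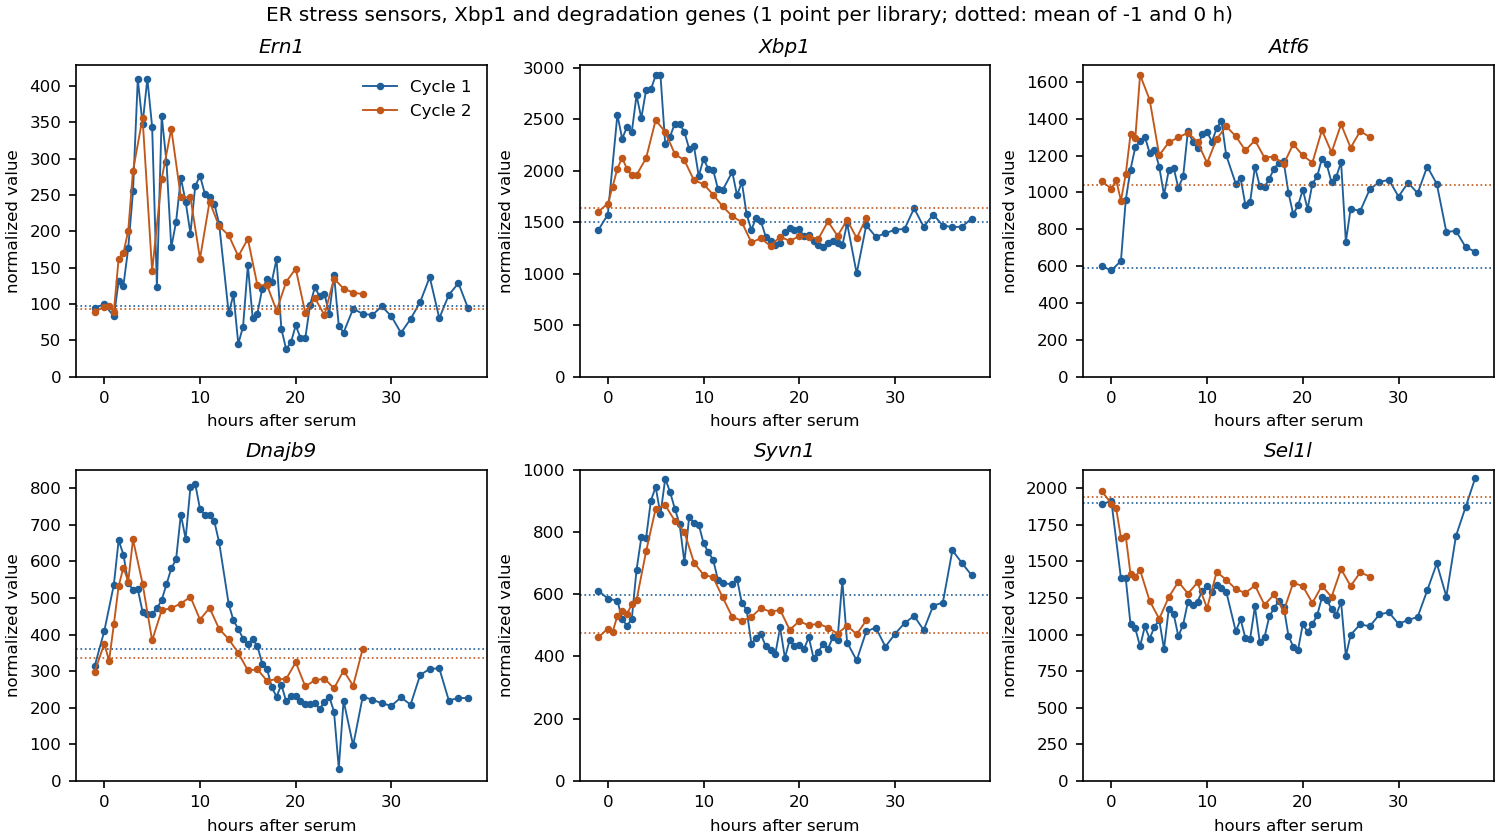
Normalized value (vertical axis, from 0) against hours after serum for the sensors Ern1 and Atf6, for Xbp1, for the J-protein Dnajb9 and for Syvn1 and Sel1l of the degradation complex. Each point is 1 library, Cycle 1 in blue and Cycle 2 in orange, and dotted lines are the starved means. Ern1, Xbp1 and Syvn1 are highest at 4 to 6 h in both Cycles, and Sel1l lies under its starved mean in both up to 27 h.

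Dnajb9 (ERdj4), a J-protein that restrains IRE1, rose early and fell late. It was at 314 and 409 in starved cells of Cycle 1, 522 to 658 (median 541) at 1 to 3 h, 581 to 812 (728) at 7 to 10 h and 33.6 to 230 (211) at 21 to 27 h, the last including 24.5 h. Cycle 2 had 299 and 375, then 428 to 660 (545), 441 to 503 (479) and 253 to 361 (275). The values at 1 to 3 h were above the starved ones in both Cycles. The change was 0.69 ± 0.194 (adjusted p = 0.00326) at 1 to 3 h, 0.74 ± 0.201 (adjusted p = 0.00195) at 7 to 10 h and -0.58 ± 0.186 (adjusted p = 0.00709) at 21 to 27 h. The rise at 7 to 10 h was not called against the 0 h libraries alone (adjusted p = 0.0739).

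The genes of ER-associated degradation (ERAD) moved in different directions. Syvn1 (HRD1), the ubiquitin ligase, was at 612 and 586 in starved cells of Cycle 1 and at 781 to 972 (median 901) at 4 to 6 h, and in Cycle 2 at 461 and 489 and then at 738 to 886 (875). It rose by 0.69 ± 0.0952 (adjusted p = 1.74e-07; 0.58 and 0.80), and by 21 to 27 h it had fallen by 0.89 from that window (SE 0.072, adjusted p = 1.55e-12). Sel1l, its partner in the same complex, was at 1893 and 1912 in Cycle 1 and at 901 to 1176 (1052) at 4 to 6 h, and in Cycle 2 at 1980 and 1895 and then at 1108 to 1256 (1230). It was lower in all 6 windows, by 0.76 at 4 to 6 h (SE 0.0907, adjusted p = 1.25e-08; -0.82 and -0.70), and in all 6 with TMM scaling too. Edem1, which trims sugars of misfolded chains, was lower in all 6 windows by 0.17 to 0.38, but in 3 of them with TMM scaling, where its change at 1 to 3 h was 0.05 (adjusted p = 0.527). Herpud1, a stress-induced scaffold of ERAD, was at 980 and 1175 in starved cells of Cycle 1, and at 1 to 3 h went from 1304.7 at 1 h to 279.8 at 2.5 h. Starved cells of Cycle 2 had 810 and 888, and that window 539 to 868 (677). The fall was 0.71 (SE 0.161, adjusted p = 0.000359; -1.11 and -0.32), and in Cycle 2 alone it was not called (adjusted p = 0.114).

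In the cytosol the inducible HSP70 genes fell and then rose. Hspa1a and Hspa1b lie side by side on chromosome 17 (NCBIM37, chr17:35106144-35109069 and chr17:35093381-35096183), and their coding sequences, 1926 and 1929 bases long, are identical over 99.4% of the alignment. Reads of 50 bases from there cannot all be assigned to a copy, and how such reads were counted is not given in the sources used here, so the 2 values are uncertain and not independent. Hspa1b was at 70.6 and 152 in starved cells of Cycle 1, 29.7 to 45.1 (median 36.6) at 4 to 6 h and 116 to 208 (160) at 21 to 27 h. In Cycle 2 these were 106 and 105, then 46.9 to 59.9 (56.3) and 119 to 155 (144). The libraries at 4 to 6 h were below both starved ones in both Cycles. The change was -1.16 ± 0.228 at 4 to 6 h (adjusted p = 5.2e-05; -1.37 and -0.95), and from there to 21 to 27 h Hspa1b rose by 1.71 ± 0.172 (adjusted p = 2.66e-10; 2.06 and 1.36). Hspa1a, with values of 5.2 to 94 in Cycle 1 and 14.8 to 48.9 in Cycle 2 after serum, fell by 1.10 at 4 to 6 h (SE 0.383, adjusted p = 0.0134; -1.54 and -0.66), but was not called there without the 0 h library of Cycle 1 (adjusted p = 0.0843) or of Cycle 2 (adjusted p = 0.0653).

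The starved cells were themselves not at 1 level for these genes. Over the last hour before serum, from -1 to 0 h, Dnajb1 (HSP40), a J-protein of HSP70, went from 503.5 to 1521.8 in Cycle 1 and from 623.9 to 1002 in Cycle 2. Hspa1a went from 16.5 to 62 and from 22.9 to 46.1. These 2 of the 43 members were at least 1.5 times higher at 0 h in both Cycles, as were 106 of 11235 genes with a mean of at least 32 (0.943%), and this was noticed after the values were seen. For Hspa1b the ratio of 0 h to -1 h was 2.16 in Cycle 1 and 0.99 in Cycle 2. Dnajb1 was highest at 1 h in both Cycles, 2474.7 and 1272.8, and its rise of 0.60 ± 0.157 at 1 to 3 h (adjusted p = 0.00152, and 0.86 and 0.35 in the Cycles) was 0.03 against the 0 h libraries alone (adjusted p = 0.855) and was not called without the Cycle 1 library at -1 h (adjusted p = 0.0569). No later window was called.

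Bag3 and Hspb8, partners in chaperone-assisted autophagy, rose in the first hours. Bag3 was at 767 and 885 in starved cells of Cycle 1 and at 2047 to 3665 (median 2923) at 1 to 3 h, and in Cycle 2 at 651 and 761 and then at 1479 to 2018 (1791). It was highest at 2 h in both Cycles. The change was 1.55 ± 0.128 (adjusted p = 5.57e-12; 1.80 and 1.30), and it was 0.38 ± 0.124 at 15 to 20 h (adjusted p = 0.0079). Hspb8 (HSP22) was at 589 and 578 and then at 1147 to 2224 (2060) in Cycle 1, and at 850 and 878 and then at 1154 to 1755 (1601) in Cycle 2. It rose by 1.21 ± 0.102 (adjusted p = 8.62e-12; 1.62 and 0.81) and by 0.49 ± 0.0976 at 21 to 27 h (adjusted p = 4.81e-05). For both genes every library at 1 to 3 h was above the starved ones of its Cycle.

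Hspb1 (HSP25), a small heat shock protein of the actin cytoskeleton, rose later and stayed up. It was at 49.6 and 52 in starved cells of Cycle 1, 80.6 to 163 (median 123) at 4 to 6 h and 134 to 357 (219) at 21 to 27 h, the highest being that of the 24.5 h library. Cycle 2 had 63.9 and 70, then 112 to 157 (123) and 211 to 253 (222). Neither of these windows overlapped the starved cells in either Cycle. The change was 1.88 ± 0.150 at 21 to 27 h (adjusted p = 1.32e-12; 2.00 and 1.76), the largest of any member in any window against starved cells. Hsf1, the heat shock transcription factor, changed less, by 0.53 ± 0.087 at 4 to 6 h (adjusted p = 3.52e-06; 0.61 and 0.45), where its values were 522 to 597 in Cycle 1 and 472 to 524 in Cycle 2 against 350 to 411 and 352 to 372 in starved cells.

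**Figure D4:**
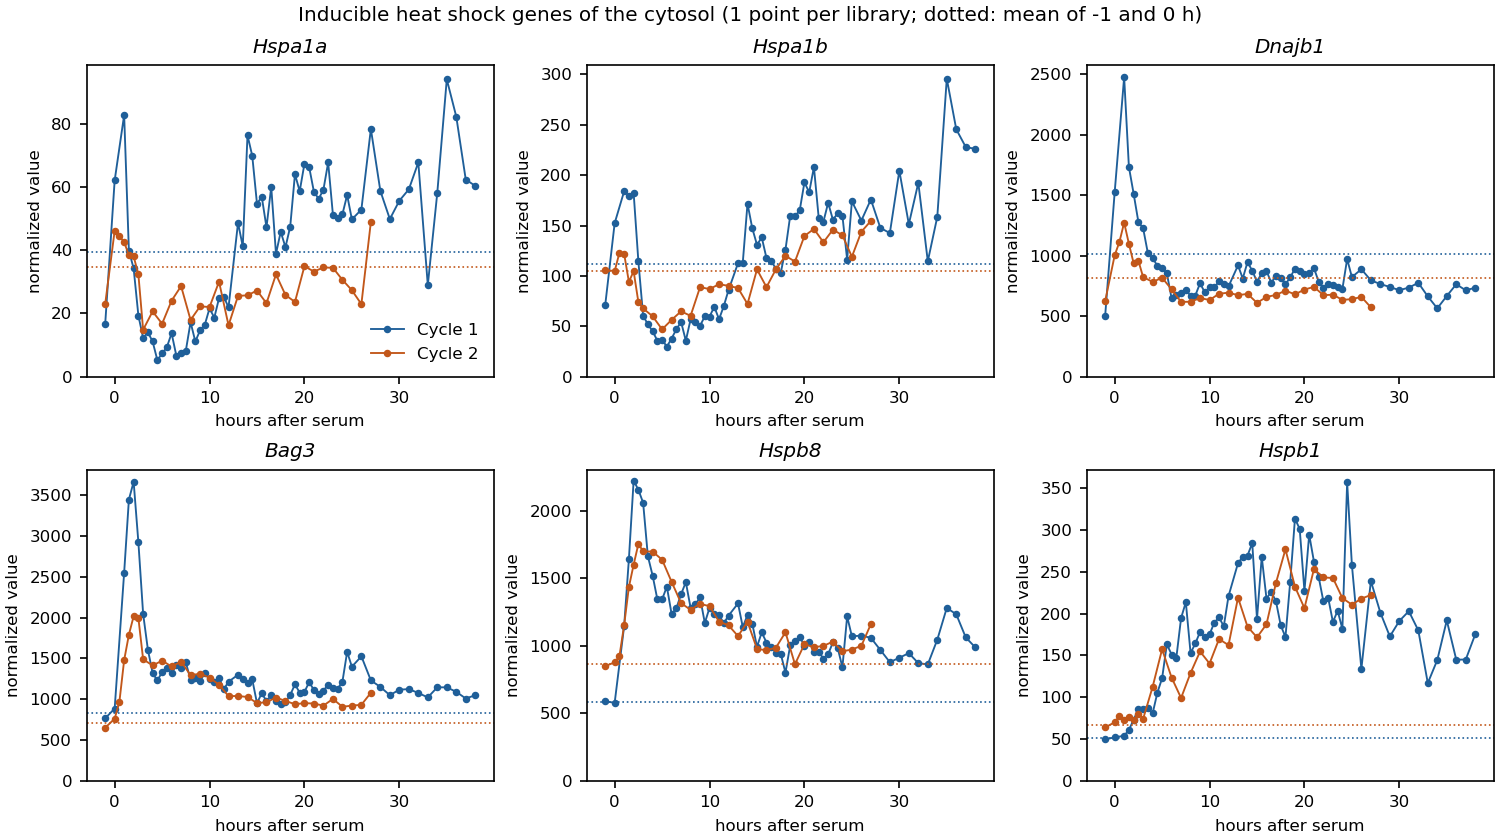
Normalized value (vertical axis, from 0) against hours after serum for Hspa1a, Hspa1b, Dnajb1, Bag3, Hspb8 and Hspb1, 1 point per library, Cycle 1 in blue and Cycle 2 in orange, with dotted lines at the starved means. Bag3, Hspb8 and Dnajb1 are highest in the early hours, Hspa1a and Hspa1b are lowest at 3 to 6 h, and Hspb1 is highest at 18 h or after.

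The chaperones that serve new proteins rose slowly. Hsp90ab1, the constitutive HSP90, was at 13828 and 12952 in starved cells of Cycle 1 and at 22446 to 30934 (median 23987) at 21 to 27 h, and in Cycle 2 at 14787 and 14694 and then at 18317 to 20154 (18986). It was higher in all 6 windows, by 0.28 ± 0.0934 at 1 to 3 h (adjusted p = 0.0114) and 0.64 ± 0.0895 at 21 to 27 h (adjusted p = 1.88e-07). Hsp90aa1, the inducible HSP90, was at 556 and 535 in Cycle 1 and at 932 and 981 in Cycle 2, and at 21 to 27 h at 636 to 1634 (1371) and at 1259 to 1425 (1313). Its lowest value there is that of the 24.5 h library, and in the tested hours it rose by 0.92 ± 0.127 (adjusted p = 1.62e-07; 1.36 and 0.48). Hspa8 (HSC70) was at 129 and 197 in Cycle 1 and at 213 and 200 in Cycle 2, and rose by 0.61 ± 0.125 at 11 to 14 h (adjusted p = 9.11e-05; 0.83 and 0.40). Since it is not given how reads that match several places were counted, levels of genes with processed copies elsewhere, such as Hspa8, are uncertain. Hsph1 (HSP110), which exchanges the nucleotide of HSP70, rose by 0.90 ± 0.174 at 11 to 14 h (adjusted p = 4.12e-05; 1.49 and 0.32), and Hspa4, of the same family, by 0.62 ± 0.0953 at 21 to 27 h (adjusted p = 1.01e-06; 1.00 and 0.24). Dnaja1, a J-protein of HSP70, was called against starved cells only at 4 to 6 h (-0.22 ± 0.0836, adjusted p = 0.0209, and -0.27 and -0.18 in the Cycles), and from there to 21 to 27 h it rose by 0.16 ± 0.0632 (adjusted p = 0.0279). With TMM scaling it was called higher at 11 to 14 h instead (0.20, adjusted p = 0.0354). The change at 4 to 6 h was not called with TMM scaling (-0.05, adjusted p = 0.67) nor without the -1 h library of Cycle 1 (adjusted p = 0.0514) or the 0 h library of Cycle 2 (adjusted p = 0.0537).

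The members include 5 of the subunits of TRiC, the chaperonin that folds actin and tubulin. All 5 were called higher from 4 h on in every window, and all but Tcp1 at 1 to 3 h. Cct3 was at 2118 and 1906 in starved cells of Cycle 1, 3319 to 4417 (median 3497) at 4 to 6 h and 4555 to 6179 (4945) at 21 to 27 h. Its Cycle 2 values were 2668 and 2817, then 3279 to 3710 (3504) and 4001 to 4575 (4351). The changes at 21 to 27 h were 0.99 ± 0.0982 for Cct3 (adjusted p = 2.01e-10), 0.88 ± 0.101 for Tcp1 (adjusted p = 5.41e-09), 0.82 ± 0.0909 for Cct2 (adjusted p = 2.18e-09), 0.81 ± 0.0898 for Cct5 (adjusted p = 2.1e-09) and 0.80 ± 0.0969 for Cct8 (adjusted p = 1.24e-08). Each was higher than in starved cells in both Cycles, with 1.11 to 1.34 in Cycle 1 and 0.43 to 0.64 in Cycle 2. The median of the 5 went from 0.29 at 1 to 3 h to 0.82 at 21 to 27 h.

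Hspd1 and Hspe1, whose shared promoter is printed above, overlap at their 5′ ends on opposite strands (NCBIM37, chr1:55134679-55145087 and chr1:55144976-55148151), and because both strands were counted reads from the overlap cannot be told apart. The annotation also names 4 pseudogenes of Hspe1, so the doubt about reads that match several places holds for it too. Hspd1 was at 622 and 599 in starved cells of Cycle 1 and at 1100 to 2554 (median 1995) at 21 to 27 h, its lowest at 24.5 h and its highest at 26 h. Cycle 2 had 1159 and 1141 and then 1606 to 1698 (1678). The change was 1.16 ± 0.148 (adjusted p = 3.97e-08; 1.78 and 0.54). Hspe1 was at 149 and 131 and then at 245 to 519 (295) in Cycle 1, and at 191 and 185 and then at 206 to 285 (225) in Cycle 2. It rose by 0.78 ± 0.184 (adjusted p = 0.00043; 1.28 and 0.29) and was not called in Cycle 2 alone (adjusted p = 0.101). Hspa9 (mortalin) was at 5991 and 5930 in Cycle 1 and at 7585 and 7857 in Cycle 2, and in no window did its change pass the test, although with TMM scaling it was called higher at 1 to 3 h (0.32, adjusted p = 0.00132) and 21 to 27 h (0.27, adjusted p = 0.00241). From 4 to 6 h to 21 to 27 h it rose by 0.37 ± 0.0709 (adjusted p = 2.72e-05; 0.54 and 0.21).

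**Figure D5:**
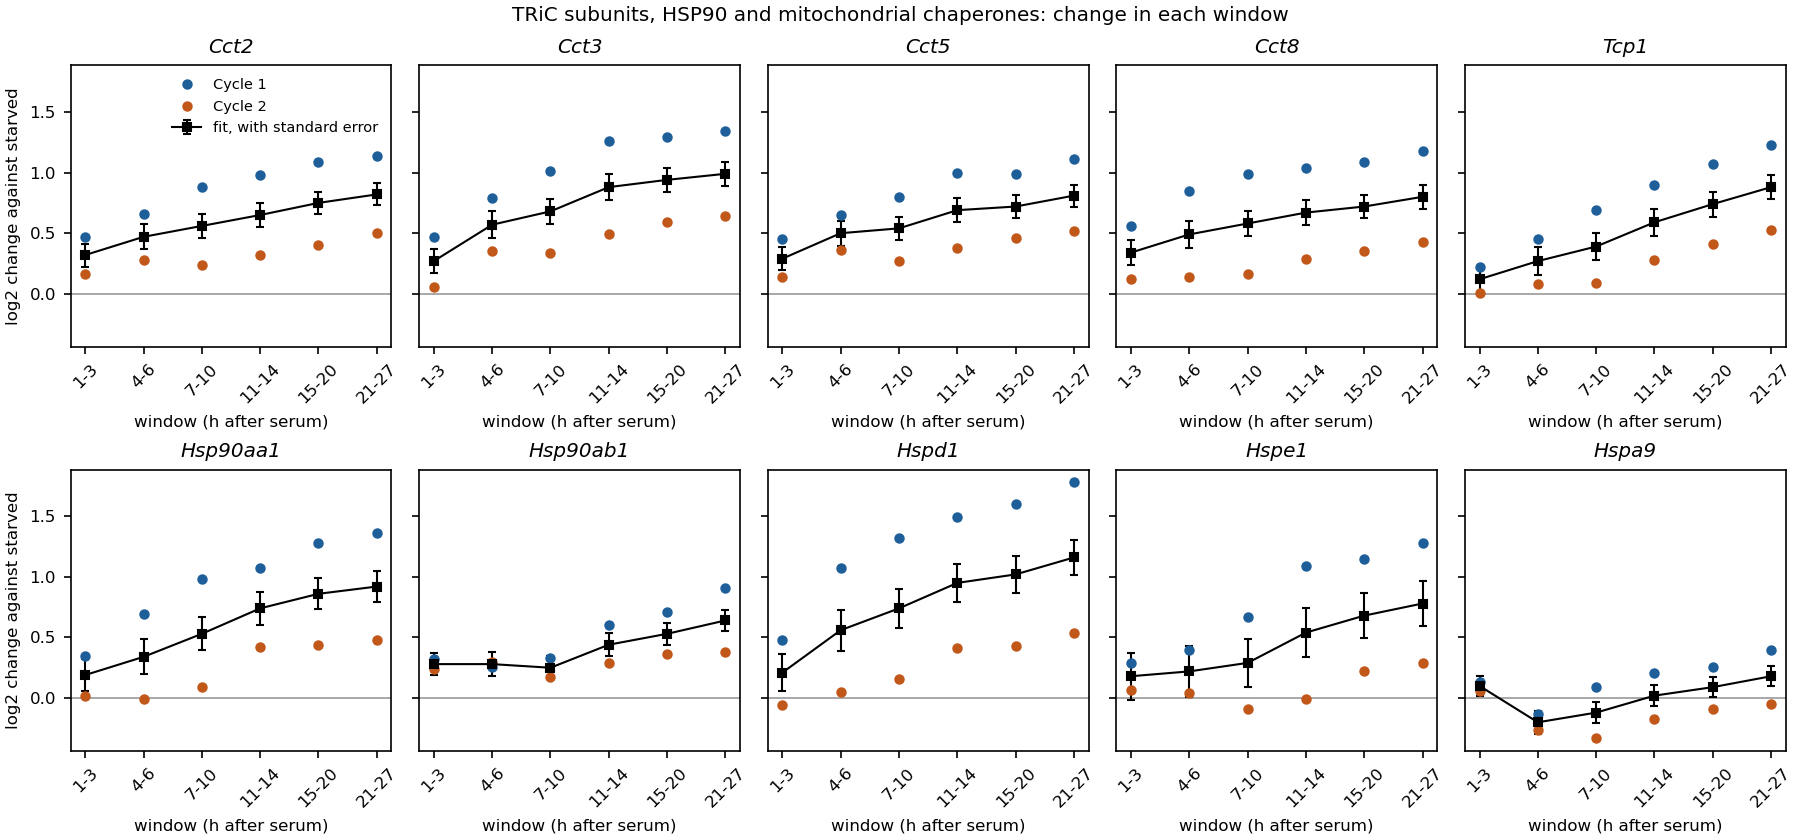
Log2 change against starved cells (vertical axis) in each window (horizontal axis, hours after serum) for 5 TRiC subunits, the 2 HSP90 genes of the cytosol and the 3 mitochondrial chaperones. Black squares with bars are the fitted change and its SE, blue points Cycle 1 and orange points Cycle 2. Fitted changes of the TRiC subunits reach 0.80 to 0.99 at 21 to 27 h, Cycle 1 lies above Cycle 2 for all 10 genes in that window, and Hspa9 ranges from -0.20 to 0.18.

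Set directly against 4 to 6 h, the window of 21 to 27 h, which does not use the starved libraries, had 24 members higher (55.8%, against 35.1% of all genes) and 8 lower (18.6%, against 26.8%). The 32 calls all had the same direction in both Cycles, as did 98.3% of the calls of all genes. The 8 lower were Hspa5, Dnajb9, Syvn1, Xbp1 and Ern1 of the ER and Hspb8, Hsf1 and Bag3 of the cytosol. Those higher included all 3 mitochondrial members, the 5 TRiC subunits, Hspa1a, Hspa1b, Hspb1, Hsp90b1, Calr, Canx and Pdia4. With TMM scaling 21 were higher and 10 lower, where all genes gave 30.7% and 30.7%.

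Other genes of the same pathways were counted from lists. Of 57 further genes of ER folding and the UPR, 22 were higher (38.6%) and 12 lower (21.1%) at 7 to 10 h, where all genes gave 22.9% and 36.7%, with a median of 0.12. At 21 to 27 h 10 were higher (17.5%, against 26.2%) and 24 lower (42.1%, against 39.5%), with a median of -0.09, and the share that was lower is near that of all genes. The genes named from this and the next lists had the same direction in both Cycles. Among the 5 with the largest called change were genes of the PERK and ATF4 branch. Trib3, a pseudokinase target of ATF4, fell by 2.11 at 4 to 6 h (SE 0.175, adjusted p = 4.67e-12), from a median of 937 to 237. Ddit3 (CHOP), the stress transcription factor, fell by 1.78 there (SE 0.162, adjusted p = 3.22e-11), from 864 to 234, and Ppp1r15a (GADD34), which reverses the phosphorylation of eIF2α, by 1.10 at 21 to 27 h (SE 0.249, adjusted p = 0.000276). The prolyl isomerase Fkbp14 fell by 1.10 at 21 to 27 h as well (SE 0.139, adjusted p = 3.04e-08), and Sec61g, of the translocation channel, was higher by 2.15 at 4 to 6 h (SE 0.492, adjusted p = 0.000345) at values with a median of 0.477 in starved cells and 7.74 in that window.

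Of 44 further cytosolic chaperone genes, 9 were higher (20.5%) and 10 lower (22.7%) at 1 to 3 h, where all genes gave 14.1% and 39.2%, and 32 higher (72.7%) and 3 lower (6.82%) at 21 to 27 h, where they gave 26.2% and 39.5%, with medians of 0.01 and 0.53. Cryab (αB-crystallin), a small heat shock protein, rose by 2.68 ± 0.225 at 4 to 6 h (adjusted p = 5.66e-12; 3.24 and 2.12 in the Cycles), from a median of 659 to 4260. Bag2, a nucleotide exchange factor of HSP70, rose by 1.72 ± 0.113 at 15 to 20 h (adjusted p = 1.76e-14) and the J-protein Dnajb4 by 1.53 ± 0.194 at 1 to 3 h (adjusted p = 4.64e-08). The HSP70-like Hspa12a fell by 2.25 at 7 to 10 h (SE 0.164, adjusted p = 2.5e-13) and Hspb11 by 1.32 (SE 0.159, adjusted p = 1.43e-08). Of 21 further genes of mitochondrial chaperones and proteases, 2 were higher (9.52%) and 9 lower (42.9%) at 1 to 3 h, near the shares of all genes, and 11 higher (52.4%) and 3 lower (14.3%) at 21 to 27 h. The protease Htra2 rose by 1.23 ± 0.123 (adjusted p = 2.16e-10) and the prohibitin Phb2 by 0.95 ± 0.111 (adjusted p = 6.53e-09) at 21 to 27 h, and the protease subunit Clpp by 0.93 ± 0.153 at 11 to 14 h (adjusted p = 3.93e-06). Hscb, a J-protein of iron-sulfur cluster assembly, fell by 1.50 at 4 to 6 h (SE 0.168, adjusted p = 3.07e-09), and Hspa12b, kept in that list although it is an HSP70-like gene of the cytosol, by 2.04 at 1 to 3 h (SE 0.233, adjusted p = 6.52e-09).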

How the data were processed

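Poly(A) RNA was sequenced as single 50-base reads from a stranded kit. The authors demultiplexed with CASAVA, aligned to mm9 with STAR and counted reads on exons of both strands with HOMER, whose versions are not given in the sources used here. The deposited values are a normalized signal per gene, and 7 of the 43 members are averages over transcripts. Of 96 columns 1 was not used, since its name matches no library title, so 1 library of Cycle 1 was not analysed here. Between 94.2% and 96.1% of low values were whole multiples of a step, within 0.02 steps, so reads were recovered for an added edgeR 4.0.16 test.

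limma 3.58.1 (R 4.3.3, trend and robust off) was fitted with 1 term per shared hour and 1 for the Cycle, with 31 residual degrees of freedom, since the study relates each series to its own starved samples. Differences between the Cycles correlated across 9112 genes with a median of 0.424 over 465 pairs of hours. Over those genes the offset between the Cycles thus tended to persist over the hours, and the term for the Cycle takes up a lasting offset. It does not take up an offset that changes. For the members the median gap (Cycle 2 minus Cycle 1) went from 0.44 in starved cells to -0.19 at 11 to 14 h. The correlation cannot show that equal hours of the Cycles match, since a lasting offset gives it without any match. Hours were paired by their labels, and the paper says that its series may have started at different points. Nothing in the labels says whether the Cycles came from separate cultures, so p-values measure the spread between these libraries. Members and gene lists were chosen with earlier results of these data known. Any member may be named, with values per Cycle for the 6 with the largest called change in the ER and in the cytosol, all mitochondrial ones and a list of sensors and constitutive chaperones. Of other lists the 5 with the largest called change are named. Tests were checked on simulated data. Hours of Cycle 1 alone, with no replicate, were not tested. Alternatives covered scaling, pseudocount, filter, baseline, tool and left-out libraries. Fits of 1 Cycle alone had 1 term per window in place of 1 per hour, and no term for the Cycle. Hours of 1 time course stood in as replicates there, so their p-values measure only the spread between those hours. Python 3.11.15 drew the figures.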

Additional observations from a re-analysis of the deposited data

Results flagged for a closer look

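For 9 members, all libraries of the shared hours of a window lay above both starved libraries in Cycle 1 and below both in Cycle 2, in 22 combinations of gene and window. The share of all genes with this pattern is not given here, so it cannot be said whether these counts are unusual. The difference between the Cycles was not tested. The values below are the log2 change of Cycle 1 minus that of Cycle 2. For Hsp90b1 it was 0.82 at 7 to 10 h, 1.03 at 11 to 14 h, 1.14 at 15 to 20 h and 1.07 at 21 to 27 h. For Calr it was 0.63 at 7 to 10 h and 1.0 at 11 to 14 h, for Pdia6 0.93 at 11 to 14 h, and for Hspa5 0.65 at 15 to 20 h. For Canx it was 0.52 at 11 to 14 h, 0.65 at 15 to 20 h and 0.52 at 21 to 27 h. For Pdia3 it was 0.46, 0.64, 0.67 and 0.62 in the 4 windows from 7 to 10 h on. For Pdia4 it was 0.63 at 11 to 14 h, 0.73 at 15 to 20 h and 0.6 at 21 to 27 h. For P4hb it was 0.19 at 7 to 10 h and 0.37 at 11 to 14 h. For Hspa9 it was 0.38 at 11 to 14 h and 0.35 at 15 to 20 h. Of these 9 genes 8 encode folding factors of the ER, and all 9 had higher starved values in Cycle 2, as did 35 of the 43 members. Changes are measured from the starved level of each Cycle, so a higher starved level makes them lower.

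Among the 4 starved libraries, no library stood apart for any of the 43 members by Dixon's ratio. Chance alone would mark about 1 gene in 20 if the 4 libraries were of 1 group. They were 2 from each Cycle, and 35 of the 43 members were higher in Cycle 2. Values that fall in 2 pairs can hide a library that stands apart, so no conclusion is drawn from this.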

How the results depend on the processing

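Of 39 members with a call, the change in the window of largest change kept its direction under all 14 alternatives, except Pdia6 at 11 to 14 h, which was -0.06 without Cycle 1 and 0.87 without Cycle 2. Over members and alternatives 512 of 546 values stayed on their side of the threshold and 33 did not. Of 16 counts, 190 of 224 values stayed within 1.5 times the reported count. At 1 to 3 h, 15 members were higher, and 9 against the 0 h libraries alone and 23 with TMM scaling. Over all genes these counts were 2249, 1755 and 3632. There were 4 lower, and 2 with each of these, with edgeR on recovered reads and without the replicate block. Over all genes 6232 were lower, and then 4664, 4123, 4469 and 5558. At 4 to 6 h, 8 were lower, and 5 against the 0 h libraries alone and 4 with TMM scaling or edgeR on recovered reads. All genes gave 6425 there, and then 5194, 5054 and 5231. Of the 7 that rose and 2 that fell at least 2-fold, TMM scaling gave 11 and 0, and a pseudocount of 4 gave 1 that fell. The replicate block changed no other count by over 1.5 times. Without 1 library or 1 Cycle, the counts ran from 8 to 15 higher and 2 to 6 lower at 1 to 3 h, 5 to 9 lower at 4 to 6 h, 16 to 30 higher and 2 to 8 lower at 7 to 10 h, 1 to 8 lower at 11 to 14 h, 14 to 30 higher and 3 to 9 lower at 15 to 20 h, and 3 to 20 rising and 0 to 3 falling at least 2-fold. Over all genes these fits gave 1482 to 2304 higher and 4523 to 6305 lower at 1 to 3 h, and 4972 to 6489 lower at 4 to 6 h. At 7 to 10 h they gave 2642 to 3705 higher and 4075 to 5906 lower. There were 3234 to 5607 lower at 11 to 14 h, and 2880 to 4255 higher and 3714 to 5925 lower at 15 to 20 h. Counts of all genes at 2-fold are not given for these fits, TMM scaling or the pseudocount. The cause of these ranges was not tested. The library at 26 h of Cycle 1, left out by a choice made after seeing the data, moved no count by over 1.5 times. With 2 Cycles and 1 library per hour the SE of a window takes its hours as independent, although deviations of a Cycle persisted in time, so it may be too small, and the Cycles may not run in step by the clock.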

Other observations

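Cycle 1 was sampled alone from 28 to 38 h, without replicates, so these are values with no test. Sel1l, at 1073 to 1302 at 28 to 33 h, was at 1259 to 2068 at 34 to 38 h, and its starved values were 1893 and 1912. Herpud1 was at 572 to 716 and then at 590 to 1159, and Syvn1 at 431 to 530 and then at 564 to 741. Hspa1b was at 114 to 204 and then at 159 to 296. In the other direction, Hspd1 was at 2215 to 2358 at 28 to 33 h and at 1300 to 1978 at 34 to 38 h, Cct3 at 4673 to 5296 and then 3530 to 5073, and Hspa8 at 244 to 326 and then 203 to 222. Hsp90b1 was at 18159 to 22130 and then at 20356 to 23921, against 19594 and 18551 in starved cells of Cycle 2. Averaged over the 5 hours from 34 to 38 h, Atf6 was 0.43 above its starved level on the log2 scale, after 0.83 over the 6 hours before.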
